A study of Mus musculus with 12 samples.

Results

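Loss of the NF-kB subunits p50 and p105 was examined in mouse macrophages that received lipopolysaccharide (LPS, a component of the wall of gram-negative bacteria) together with the cytokine interleukin 10 (IL-10). The comparison set the 2 arrays of p50-/-IL10-/- cells against the 2 arrays of IL10-/- cells, out of 12 arrays in the series, and was read across 12393 genes with 1 probe set each. The cells were grown from bone marrow of mice of strain 129-SvEv-Tac for 5 days in medium with 10% serum and 30% supernatant of L-cells, which secrete a macrophage growth factor. Both groups then received 1 ng/ml LPS and 0.3 ng/ml IL-10 for 4 h, and 6 µg of total RNA was labelled per array. Both genotypes are Il10 knockouts per the labels, so neither group stands for wild-type cells. The series holds the same genotypes with LPS alone and with no stimulus, again with 2 arrays in each group. The labels call the arrays of a group biological replicates. They do not say whether arrays with the same number came from a shared animal or culture, so the p-values cover only the spread between the samples, which may be technical.

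Nfkb1 codes for p105, which is cut to give p50. A p50 homodimer has no transactivation domain and can occupy kB sites without activating them, whereas p50 paired with RelA or c-Rel activates. p105 also acts as an IkB protein and holds and stabilises the kinase Tpl2, the product of Map3k8, which passes the LPS signal on to ERK. IL-10 signals through its receptor, JAK1, TYK2 and STAT3, and restrains the production of IL-12, TNF and other inflammatory mediators by macrophages. The comparison asks which genes of LPS-treated macrophages depend on p50 and p105 while IL-10 is present. Both proteins are missing from the same cells, so the loss of p50 and the loss of p105 cannot be told apart.

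Nfkb1 was not analysed here, so the genotype rests on the labels. Arrays of a group correlated at 0.992 to 0.997 across genes, and array medians over these genes lay between 7.20 and 7.34 log2. The 15 measured macrophage markers averaged 12.26 and 12.34 log2 on the p50-/-IL10-/- arrays and 12.33 and 12.18 on the IL10-/- arrays, so the labelled cell type was borne out by its markers in both groups. IL10-/- array 2 stood apart for interferon-stimulated genes, the antiviral genes that type I interferon switches on. All 43 measured members of that list were lower on IL10-/- array 2 than on IL10-/- array 1 with LPS and IL-10, by a median of 1.23 log2. The same was seen for 42 members with LPS alone (median 0.64) and for 41 without stimulus (median 1.20) in IL10-/- cells. In p50-/-IL10-/- cells with LPS and IL-10, array 2 was lower than array 1 for 4 members, and the median of array 2 minus array 1 was 0.22. In p50-/-IL10-/- cells under the other stimuli array 2 was again the lower one, by less. This held for 35 members with LPS alone (median of array 2 minus array 1 -0.21) and 36 without stimulus (-0.24). Results on interferon genes are therefore given against each IL10-/- array as well. Counts are also given with each array left out in turn, always in the order p50-/-IL10-/- array 1, p50-/-IL10-/- array 2, IL10-/- array 1, IL10-/- array 2.

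Levels are RMA values on a log2 scale, and differences are p50-/-IL10-/- minus IL10-/-, with their standard error (SE) and n = 2 arrays per genotype. A gene was called higher or lower at an adjusted p under 0.05 in limma's fit of all 12 arrays. Without p50 and p105, 940 genes were higher, which is 7.58% of all genes tested, and 1291 were lower, which is 10.4%. Together these are 2231 genes, or 18% of all. Of the genes called higher 193 differed by at least 1 log2 and 55 by at least 2 log2, against 109 and 14 of the genes called lower. The larger differences thus ran mostly upward although more genes were called lower. The median difference over all genes was 0.04 log2 and the median SE was 0.0998. The total of called genes was 1136, 1010, 1504 and 987 with each array left out in turn. Without IL10-/- array 2 the fit called 484 genes higher (3.91%) and 503 lower (4.06%). The groups did not overlap for any of the 2231 called genes, but this also held for 63.5% of all genes. Both p50-/-IL10-/- arrays lay above both IL10-/- arrays for 35.4% of all genes and below them for 28.2%.

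**Figure D1:**
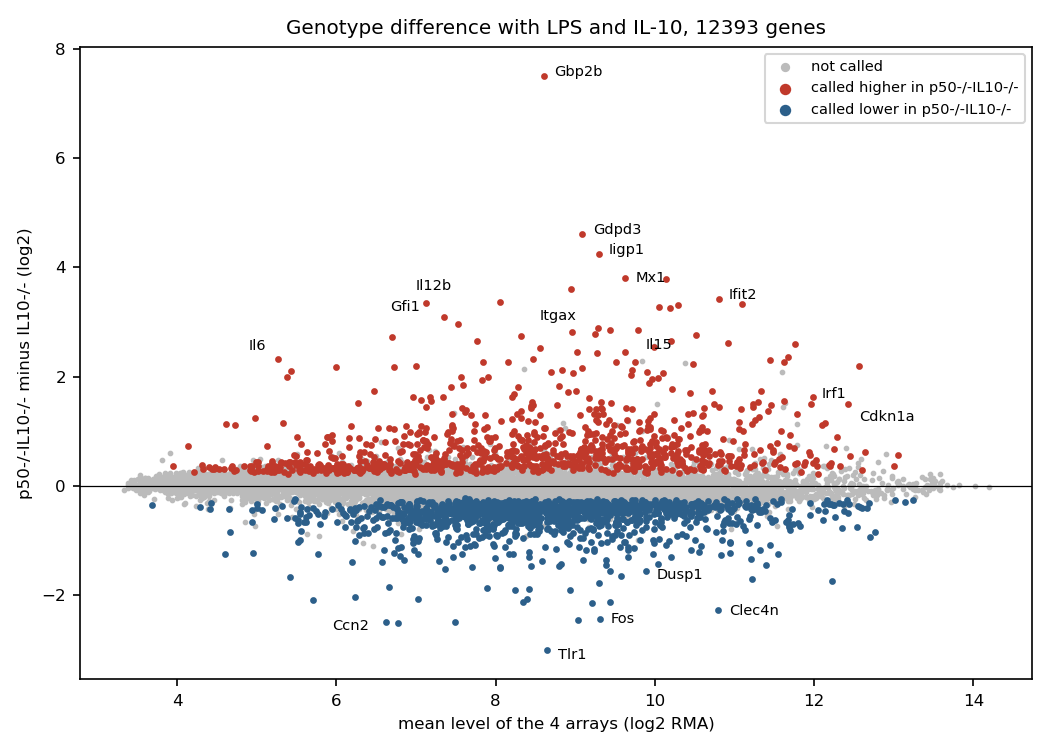
Log2 difference of each of 12393 genes, p50-/-IL10-/- minus IL10-/- cells with LPS and IL-10 (vertical axis), against its mean log2 level (horizontal axis), with called genes coloured. Gbp2b lies far above all others at 7.51, and 55 called genes are higher by at least 2 log2 against 14 lower by that much.

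Genes with the largest differences came from several functions. The guanylate-binding protein gene Gbp2b read 12.32 and 12.40 log2 in p50-/-IL10-/- cells, against 5.17 and 4.53 in IL10-/- cells. Both IL10-/- values lay under 5.94 log2, the highest lower quartile of any array, below which the size of a difference is uncertain. The difference was 7.51 ± 0.21 log2 (182-fold, adjusted p 3.67e-08). Gdpd3, which codes for a lysophospholipase D, had 10.88 and 11.90 against 6.74 and 6.83, a difference of 4.60 ± 0.34 (24.3-fold, adjusted p 2.74e-05). Both genes were higher under every stimulus, Gbp2b by 7.27 with LPS alone and by 5.34 without stimulus, and Gdpd3 by 4.58 and 4.22. The Gbp2b difference was larger with LPS and IL-10 than without stimulus by 2.17 ± 0.30 (adjusted p 0.0057). Itgax, the CD11c integrin chain, was higher by 2.88 ± 0.35, and by 2.71 with LPS alone and 2.54 without stimulus. At the other end, Tlr1, the partner of TLR2 in sensing bacterial lipopeptides, had 6.97 and 7.32 log2 in p50-/-IL10-/- cells against 10.31 and 10.00 in IL10-/- cells. Its difference was -3.01 ± 0.28 (adjusted p 9.99e-05), with -2.70 under LPS alone and -2.43 without stimulus. Next among the 14 decreases of at least 2 log2 were Ankrd33b (-2.51 ± 0.14), the matrix proteins Thbs1 (-2.50 ± 0.22) and Ccn2 (-2.49 ± 0.21), and the mRNA decay factor Zfp36l1 (-2.46 ± 0.19). The p50-/-IL10-/- means of Ankrd33b (5.52) and Ccn2 (5.38) lay under 5.94 log2.

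**Figure D2:**
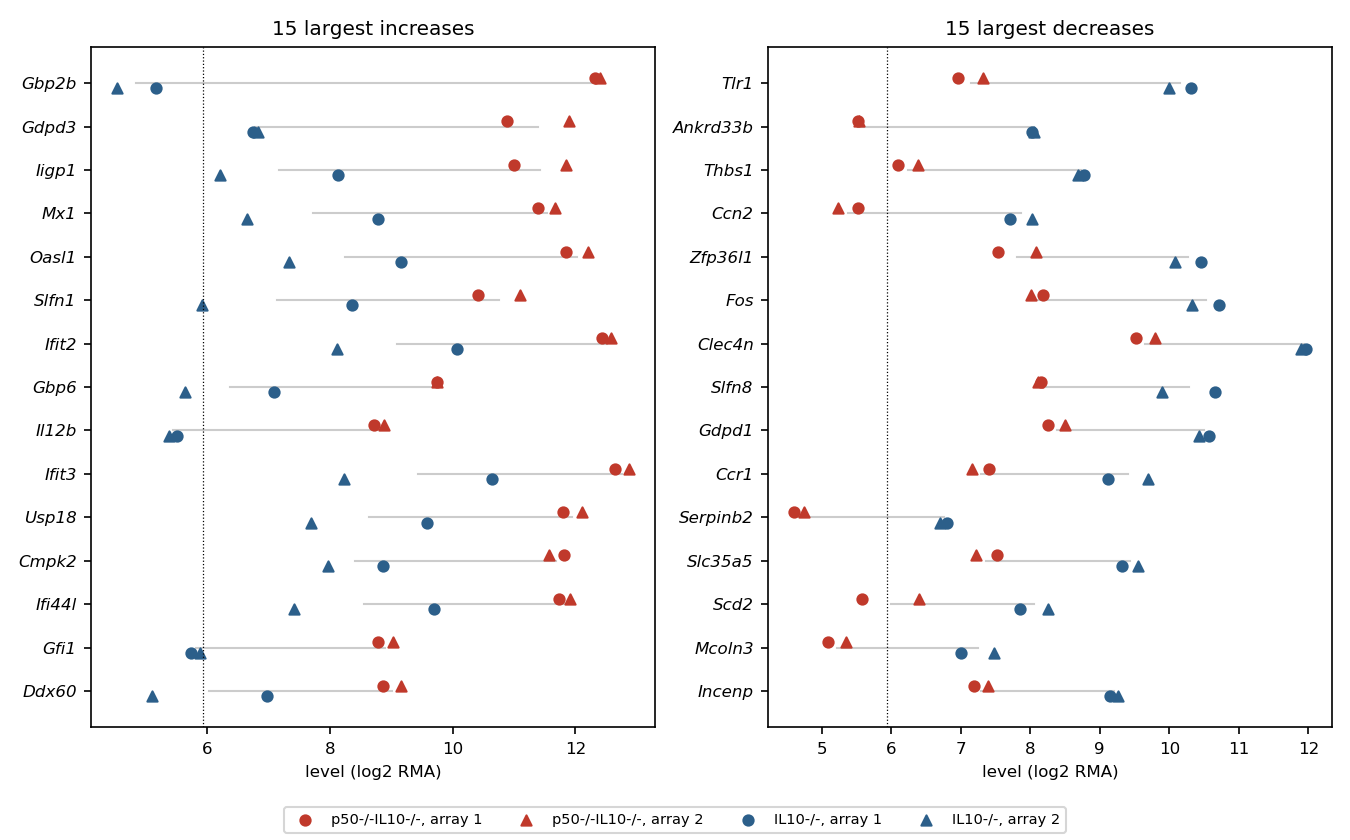
Log2 level on each of the 4 arrays for the 15 largest called increases and the 15 largest called decreases, with p50-/-IL10-/- and IL10-/- arrays in different colours and the dim level of 5.94 dotted. Only genes whose genotypes do not overlap were eligible, which holds for 63.5% of all genes, and several lie under the dotted line in their lower genotype.

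Inflammatory cytokine genes that differed were nearly all higher without p50 and p105. Of 22 measured members of this list, 10 were called higher (background 7.58% of genes), 1 lower and 11 not called, and the median difference was 0.28 against 0.04 over all genes. The higher count was 8, 7, 9 and 8 with each array left out in turn. Il12b, the p40 subunit shared by IL-12 and IL-23, read 8.72 and 8.88 log2 in p50-/-IL10-/- cells and 5.51 and 5.39 in IL10-/- cells. The genotypes were far apart and the IL10-/- arrays were dim. Il12b was 10.2-fold higher (3.35 ± 0.21, adjusted p 1.37e-05). Il6, which codes for an inflammatory cytokine and acute phase inducer, had 6.38 and 6.48 against a dim 3.90 and 4.30, a difference of 2.33 ± 0.33 (5.02-fold, adjusted p 0.00111). Tnf, an early inflammatory cytokine, read 12.15 and 12.17 against 11.22 and 11.24. All 4 Tnf arrays were bright and the arrays within a genotype almost coincided. The difference was 0.93 ± 0.11 (1.91-fold, adjusted p 0.000437 in limma's fit), with an SE that rests on the spread in all 12 arrays. Il1a was higher by 1.93 ± 0.19 and Il18 by 1.01, whereas Il1b (0.32), the shared IL-12 and IL-35 partner Il12a (0.12), the IL-23 subunit Il23a (0.15) and the antagonist Il1rn (-0.19) were not called. Vegfa, an angiogenic factor, was the member called lower (-1.52 ± 0.15), and its second probe set read -0.25 and was not called.

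IL-15, which sustains NK cells and memory T cells, was among the best resolved differences. Il15 read 11.19 and 11.24 log2 in p50-/-IL10-/- cells, against 8.25 and 8.46 in IL10-/- cells. The spread within a genotype was small beside the difference of 2.86 ± 0.12 (7.25-fold, adjusted p 8.89e-07). Its presenting receptor Il15ra had 8.04 and 8.54 against 7.01 and 6.86, a difference of 1.36 ± 0.22, and the signalling chain Il2rb (0.18) was not called. Irf1, a transcription factor that acts on many interferon and NF-kB targets, read 12.69 and 12.73 against 11.18 and 11.25. The Irf1 difference was 1.49 ± 0.07 (2.81-fold, adjusted p 1.73e-06). Gfi1, a transcriptional repressor of myeloid development, had 8.78 and 9.03 against a dim 5.75 and 5.88, a difference of 3.09 ± 0.19 (8.5-fold). Mir155hg, the host transcript of an LPS-induced microRNA, was higher by 2.73 ± 0.19, with a dim mean of 5.33 log2 in IL10-/- cells. Il10 itself had 7.98 and 8.03 against 6.83 and 6.96, a difference of 1.11 ± 0.16 (2.16-fold, adjusted p 0.00124). Its signal comes from a single probe set, and since the labels do not say whether it lies in the deleted stretch, it checks nothing about the knockout. The calls of Il12b, Il6, Tnf, Il1a, Il15, Il15ra, Irf1, Gfi1, Mir155hg and Il10 were kept with each of the 4 arrays left out, while that of Ifnb1, the beta interferon gene (0.71 ± 0.18, adjusted p 0.0246), ended in 3 of these 4 fits.

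**Figure D3:**
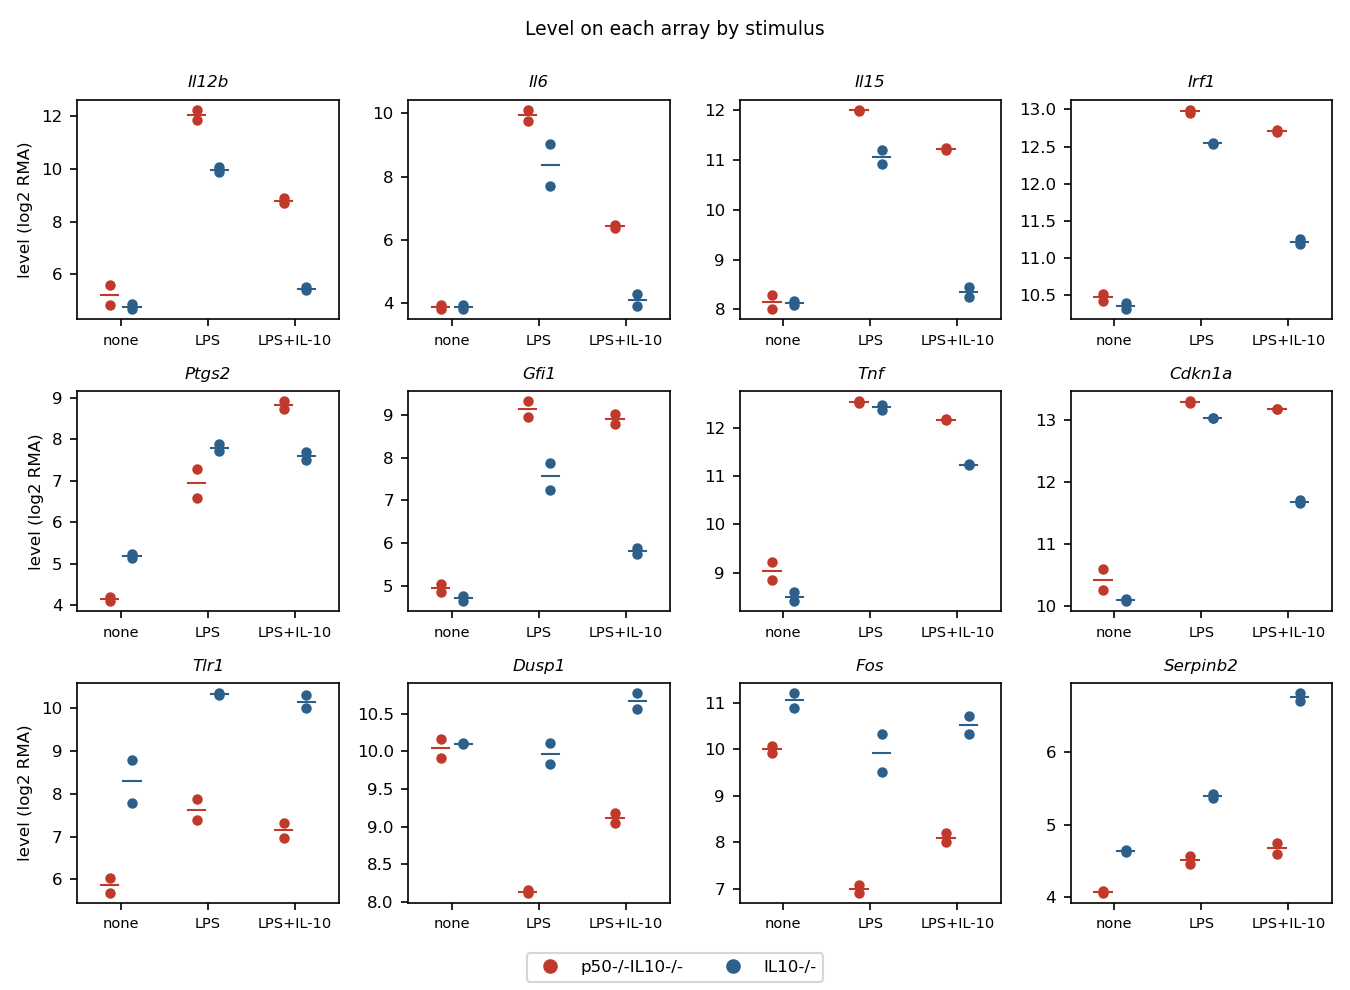
Log2 level of 12 genes under each stimulus (none, LPS alone, LPS and IL-10 together), with dots for arrays, bars for group means and p50-/-IL10-/- left of IL10-/- at each stimulus. With LPS and IL-10 the genotypes are separated in all 12 genes, as they are in 63.5% of all genes. Ptgs2 is higher in p50-/-IL10-/- cells with LPS and IL-10 (8.91 and 8.72 against 7.70 and 7.50) but lower with LPS alone (7.29 and 6.59 against 7.88 and 7.72).

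Promoter sequences are shown for genes on which these results turn, because p50 acts on DNA through kB sites and interferon genes through sites of the IRF family. Each run gives the 250 bases before the annotated gene start, in the direction of transcription, from RefSeq on build GRCm38.p6. Capitals mark a match on either strand to the 10-base kB consensus (3 leading G, 2 closing C) or to the IRF motif GAAANNGAA. The Il6 window, chr5:30012864-30013113 on the plus strand, holds 1 kB match that ends 34 bases before the start. Cxcl10, a chemokine for T cells, has its window at chr5:92348890-92349139 on the minus strand, with 2 kB matches 149 and 93 bases before the start and 1 IRF match 204 bases before it. The Irf1 window is chr11:53769764-53770013 on the plus strand, with 1 kB match 3 bases before the start, and a second annotated Irf1 window, not shown, holds neither motif. The Gbp2b window is chr3:142594597-142594846 on the plus strand, with 1 IRF match 127 bases before the start. Fos, an AP-1 subunit that was lower, is shown for contrast, with its window at chr12:85473640-85473889 on the plus strand and 1 kB match 204 bases before the start.
Il6: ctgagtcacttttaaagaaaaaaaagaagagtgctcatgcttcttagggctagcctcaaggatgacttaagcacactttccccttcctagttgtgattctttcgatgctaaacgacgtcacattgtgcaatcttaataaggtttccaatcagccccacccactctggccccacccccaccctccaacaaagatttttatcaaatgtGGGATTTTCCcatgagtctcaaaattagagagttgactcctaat
Cxcl10: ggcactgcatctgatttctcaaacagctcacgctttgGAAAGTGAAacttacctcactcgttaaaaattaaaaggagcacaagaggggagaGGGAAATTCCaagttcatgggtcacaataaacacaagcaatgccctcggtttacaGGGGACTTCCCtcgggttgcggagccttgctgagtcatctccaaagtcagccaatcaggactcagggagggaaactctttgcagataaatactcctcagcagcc
Irf1: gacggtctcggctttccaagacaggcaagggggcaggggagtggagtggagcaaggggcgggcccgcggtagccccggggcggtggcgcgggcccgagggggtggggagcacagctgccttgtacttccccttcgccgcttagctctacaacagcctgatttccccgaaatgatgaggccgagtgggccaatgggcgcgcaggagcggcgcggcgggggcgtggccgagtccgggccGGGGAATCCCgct
Gbp2b: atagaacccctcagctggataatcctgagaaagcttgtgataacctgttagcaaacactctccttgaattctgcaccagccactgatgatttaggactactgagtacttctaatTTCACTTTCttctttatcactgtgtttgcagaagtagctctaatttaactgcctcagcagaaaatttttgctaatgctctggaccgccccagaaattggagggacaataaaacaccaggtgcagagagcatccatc
Fos: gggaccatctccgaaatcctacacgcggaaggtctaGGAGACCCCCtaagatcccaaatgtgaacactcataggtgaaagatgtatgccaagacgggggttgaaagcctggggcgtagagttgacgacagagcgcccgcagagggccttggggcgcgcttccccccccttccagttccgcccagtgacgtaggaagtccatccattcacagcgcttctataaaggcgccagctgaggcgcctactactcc
In windows of 300 bases, from 250 before to 50 after the start, a kB match was present in 12.0% and an IRF match in 8.63% of 9882 measured genes. Among 756 genes called higher the shares were 12.7% and 14.4%, and among 1073 genes called lower they were 13.3% and 7.64%. The kB match was therefore about as frequent in genes called higher as in genes called lower. It was present in 7 of 16 inflammatory cytokine genes with a window (43.8%) and in 7 of 33 interferon-stimulated genes (21.2%). The IRF match was present in 16 of those 33 genes (48.5%) and in 7 of 8 guanylate-binding protein and GTPase genes (87.5%). The windows of Il12b, Dusp1 and Tlr1 held neither. For the interferon-stimulated gene Ifit2, 1 annotated window held a kB match 237 bases before the start and no IRF match, and the other held neither. A match is a description of these letters and not a bound site.

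Of the 32 gene lists, the interferon-stimulated genes held the most called members, and also the most measured genes. The share of members called was 76.7%, against 90.9% in the list of guanylate-binding proteins and GTPases. Of 43 measured genes, 32 were called higher (background 7.58%) and 1 lower, with a median difference of 1.96 log2. The list mean was 11.03 and 11.27 log2 on the p50-/-IL10-/- arrays, against 9.85 and 8.62 on the IL10-/- arrays. The IL10-/- arrays were thus further from each other than the p50-/-IL10-/- arrays were. The median difference was 1.15 against IL10-/- array 1 alone and 2.58 against IL10-/- array 2 alone. The count of members called higher was 22, 13, 37 and 11 with each array left out in turn, the last against 3.91% of all genes. In 42 of 43 members both p50-/-IL10-/- arrays lay above each IL10-/- array, against 35.4% of all genes. How far the state of IL10-/- array 2 bears on the size of these differences was not tested beyond these values.

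Single members showed the same layout. Cmpk2, a mitochondrial nucleotide kinase, read 11.81 and 11.57 log2 in p50-/-IL10-/- cells against 8.86 and 7.97 in IL10-/- cells, a difference of 3.27 ± 0.41 (9.67-fold, adjusted p 0.000594). Oasl1, an inhibitor of Irf7 translation, had 11.84 and 12.21 against 9.16 and 7.33, a difference of 3.78 ± 0.58 (13.8-fold, adjusted p 0.00175). Both were called in all 4 fits with an array left out, as was the ISG15 protease Usp18 (3.32 ± 0.57). Mx1, an antiviral dynamin-like GTPase, had 11.39 and 11.67 against 8.78 and 6.66. Its IL10-/- arrays differed by more than 2 log2, and the call at 3.81 ± 0.77 (adjusted p 0.00779) ended in 2 of 4 leave-out fits (highest adjusted p 0.0669, without IL10-/- array 2). Ifit2, which blocks translation of viral RNA, had 12.44 and 12.57 against 10.07 and 8.11, and its call at 3.42 ± 0.68 ended only without IL10-/- array 2 (adjusted p 0.0583). The member called lower was Slfn8 (-2.14 ± 0.41), a Schlafen family gene, which was also lower with LPS alone (-2.89) and without stimulus (-1.90). Trim30a (1.12), the RNA editing enzyme Adar (1.40) and the RNA sensors Ifih1 (1.53) and Dhx58 (1.96) were called higher, while Irf9 (0.30), Ifitm3 (0.43), Oas1a (1.53) and Oas3 (2.55) were not.

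Cell-autonomous immunity GTPases moved in the same direction. The median difference of 11 guanylate-binding protein and GTPase genes was 2.24. It was 1.69 against IL10-/- array 1 alone and 2.77 against IL10-/- array 2 alone. Of the 11 genes, 10 were called higher (background 7.58%), 0 lower in limma and 0 lower at an unadjusted p under 0.05. The count was 9, 7, 10 and 7 with each array left out in turn. Besides Gbp2b these included Iigp1, an immunity-related GTPase that attacks parasite vacuoles, with 11.00 and 11.84 log2 against 8.13 and 6.21 (4.25 ± 0.85, adjusted p 0.0075). The call of Iigp1 ended in 2 of 4 leave-out fits (highest adjusted p 0.069, without IL10-/- array 2), whereas those of Gbp6 (3.37 ± 0.55) and Irgm2 (2.66 ± 0.32) were kept in all 4 fits. Gbp2, with 0.59, was not called. Gbp7, Gbp3 and Gbp2b are the 22nd, 23rd and 24th measured genes after Nfkb1 on chromosome 3, and were higher by 1.50, 1.55 and 7.51. Of the 25 measured genes on each side of Nfkb1, 5 were called higher and 1 lower, against 7.58% and 10.4% of all genes. Gbp7, Gbp3 and Gbp2b were among the 5 called higher. Both directions together made 12%, against 18% of all genes. Whether the position near Nfkb1 bears on Gbp2b, Gbp3 and Gbp7 was not tested.

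**Figure D4:**
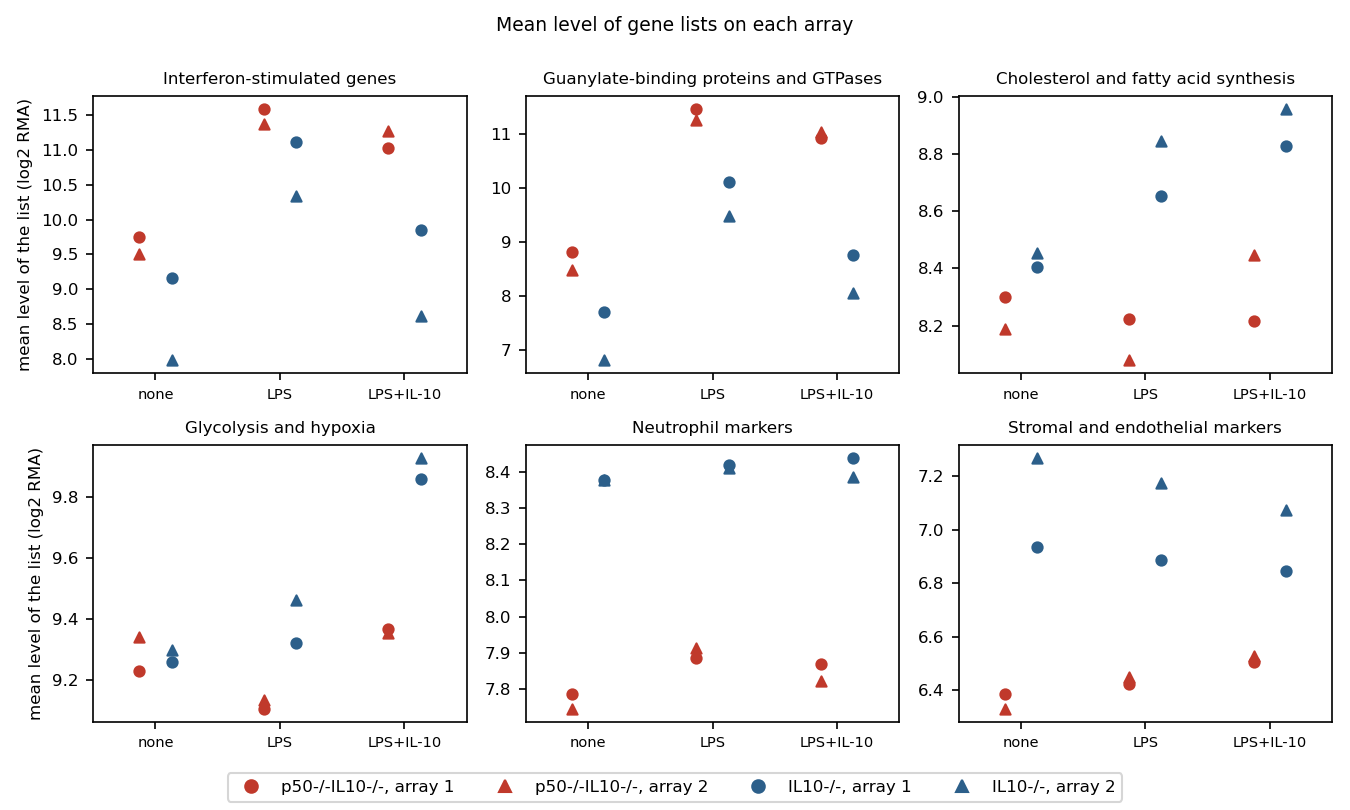
Mean log2 level of 6 gene lists on each of the 12 arrays, grouped by stimulus with p50-/-IL10-/- left of IL10-/-. For interferon-stimulated genes the IL10-/- arrays with LPS and IL-10 sit at 9.85 and 8.62, below 11.03 and 11.27 in p50-/-IL10-/- cells, and array 2 is also the lower IL10-/- array under the other stimuli.

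Regulators of the interferon system and genes of antigen presentation were examined next. Of 14 interferon regulatory factor and receptor genes, 6 were called higher and 2 lower, against 7.58% and 10.4% of all genes. Irf7, the main inducer of type I interferon (2.76), and Stat2, a subunit of the interferon-responsive factor (2.16), were higher, but both calls depended on single arrays, and the count of 6 was 3, 2, 5 and 3 with each array left out. The receptor chains Ifnar1 (-0.93) and Ifngr1 (-0.75) were lower. Of 16 genes of MHC class I loading and the immunoproteasome, 9 were called higher (median 0.64), with 4, 2, 8 and 2 in the leave-out fits. Tap1, a subunit of the peptide transporter, read 10.80 and 11.09 log2 against 9.30 and 8.41 (2.09 ± 0.33), and its other probe sets differed by at most 0.35 and were not called. Tap2, the other transporter subunit, was higher by 1.07, whereas the class I heavy chains H2-K1 (0.21) and H2-D1 (0.13) and B2m (0.15) were not called. In MHC class II presentation 2 of 15 genes were called higher, among them the transactivator Ciita (0.98), and 2 lower, shares near those of all genes. Of these 4 calls that of Ciita alone was kept in all leave-out fits, and Cd74, the invariant chain (0.73), was not called. Of 22 co-stimulation and adhesion genes, 11 were called higher and 2 lower (median 0.43). Cd40, which receives T cell help, read 12.16 and 12.24 against 10.74 and 10.71 (1.48 ± 0.16, adjusted p 0.000216), and Cd274, the PD-L1 ligand, was higher by 1.18. Cd86 (-1.11), a ligand of CD28, and Itgam (-1.05), the CD11b chain, were lower, and the call of Itgam ended in leave-out fits.

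Lipid mediator enzymes and receptors for microbes were split. Among 28 antimicrobial, lipid mediator and arginine enzyme genes, 7 were called higher and 5 lower, against 7.58% and 10.4% of all genes, with 3, 3, 4 and 3 lower in the leave-out fits. Ptges, the terminal prostaglandin E2 synthase, had 10.57 and 10.86 log2 against 8.88 and 8.50 (2.03 ± 0.18). Ptgs2, the inducible cyclooxygenase that feeds it, had 8.91 and 8.72 against 7.70 and 7.50 (1.22 ± 0.18, adjusted p 0.00161). Both steps of this route were therefore higher, and so were Ch25h, which makes an antiviral oxysterol (2.27 ± 0.38), Gch1, which makes the cofactor of nitric oxide synthase (1.45 ± 0.09), and the synthase Nos2 itself (1.10). Arg1, which competes with it for arginine, was lower by -0.84, and Acod1 (0.22), which makes itaconate, was not called. Of 19 Toll-like receptor and LPS co-receptor genes, 8 were called higher and 4 lower, against the same shares of all genes. The counts were 5, 4, 4 and 6 higher and 2, 2, 3 and 1 lower with each array left out. The RNA sensors Tlr3 (8.92 and 9.24 against 7.57 and 7.21, 1.69 ± 0.23) and Tlr7 (0.81) were higher, whereas Tlr1 (-3.01), Tlr6 (-0.59) and the LPS receptor Tlr4 (-0.48) were lower. Tlr2 (0.14) and Cd14 (0.04) were not called.

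Chemokine genes were divided between both directions, with 4 of 24 called higher and 5 lower (7.58% and 10.4% of all genes, median 0.16), and 4, 3, 3 and 4 lower in the leave-out fits. Cxcl10 read 13.09 and 13.03 log2 in p50-/-IL10-/- cells against 10.99 and 9.93 in IL10-/- cells (2.60 ± 0.36, 6.06-fold, adjusted p 0.000985). Cxcl9, which acts on the same receptor, was higher by 2.53 ± 0.44, and the monocyte attractant Ccl2 by 0.93. Cxcl11 (2.13) and Ccl5 (0.59) were not called. Ccl9 (-1.73 ± 0.15) and Ccl6 (-1.70), which share a receptor in the mouse, were lower, and this receptor, Ccr1, was lower as well (-2.12 ± 0.31), though its second probe set was dim and read -0.37.

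Genes of the NF-kB system itself were split between called and uncalled members. Of 13 other Rel subunit, IkB and IKK genes, 3 were called higher and 1 lower, against 7.58% and 10.4% of all genes (the lower one was Ikbkg, -0.42, not kept in all leave-out fits), with a median of 0.16. Nfkbia, the main inducible IkB protein, read 13.42 and 13.43 log2 against 13.41 and 13.42 (0.01, adjusted p 0.926), although another of its probe sets was called at 0.48. Nfkb2, the precursor of p52, had 10.15 and 10.22 against 10.17 and 10.19, and Rela, the main activating subunit, had 11.72 and 11.73 against 11.61 and 11.66. Neither was called. Relb was higher by 0.58, Nfkbib by 0.76 and Rel by 0.54 (adjusted p 0.0479), the last lost in each of the 4 leave-out fits. Of 18 feedback and TRAF genes, 6 were called higher and 2 lower, with 6, 3, 4 and 4 higher when an array was left out. Tnfaip3, which codes for the deubiquitinase A20 that ends NF-kB signalling, had 9.91 and 10.19 against 8.99 and 8.88 (1.12 ± 0.17), and the ubiquitin ligases Peli1 (1.01) and Birc2 (0.96) were also higher.

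The IL-10 receptor pathway was represented by 20 genes, of which 5 were called higher and 5 lower (7.58% and 10.4% of all genes). The higher count was 4, 4, 4 and 3 and the lower count 2, 3, 2 and 1 with each array left out. Il10ra, the ligand-binding chain, had 8.70 and 8.84 log2 against 8.78 and 8.99, and Stat3 had 11.81 and 11.74 against 11.85 and 11.67. The arrays of the genotypes overlapped for Stat3 and for Il10ra, and neither these genes nor Il10rb (-0.11) were called. Socs3, a STAT3 target that limits signalling by IL-6 family receptors, had 12.40 and 12.45 against 12.04 and 11.97 (0.42 ± 0.08, adjusted p 0.0068), but its other probe sets read 0.06 and 0.08 and its call ended in 2 of 4 leave-out fits. Socs1, which limits interferon signalling, had 8.75 and 9.05 against 7.07 and 6.75 (1.99 ± 0.38). Of 34 genes of the macrophage response to IL-10, 3 were called higher and 16 lower, against 10.4% of all genes, and the median was -0.33. The lower count was 11, 11, 15 and 10 and the higher count 2, 0, 1 and 3 with each array left out in turn. The lower members included the chemokine receptor Ccr1 (-2.12), the iron carrier Lcn2 (-1.47), the protease inhibitor Timp1 (-1.46), heme oxygenase Hmox1 (-1.45), the metallothioneins Mt2 (-1.34) and Mt1 (-1.25) and the mannose receptor Mrc1 (-1.17). Their Hmox1, Mt1 and Mt2 calls ended in leave-out fits. Bcl3, an IkB family member induced by IL-10, had 10.81 and 10.69 against 10.45 and 10.74 and was not called, and the IL-4 receptor Il4ra was lower by -0.68. With LPS alone, where no IL-10 was added, 14 of the 34 response genes were called lower and 3 higher, with a median of -0.34. Of all genes, 6.72% were lower and 5.66% higher with LPS alone. A direct test of whether the genotype difference changed between these stimuli called 0 of the 34. It called only 17 of all 12393 genes (0.137%), so the 0 does not set this list apart and cannot show that its differences are equal.

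Decreases were found in some immediate early genes and phosphatases that follow ERK activity. Fos read 8.19 and 8.01 log2 in p50-/-IL10-/- cells, against 10.71 and 10.33 in IL10-/- cells (-2.43 ± 0.23, adjusted p 9.99e-05). Dusp1, which dephosphorylates p38 and JNK, had 9.19 and 9.05 against 10.77 and 10.56 (-1.55 ± 0.12, adjusted p 2.94e-05). Dusp6, the ERK phosphatase, had a dim 5.69 and 5.79 against 7.73 and 7.45 (-1.85 ± 0.13). The 4 arrays fell into separate genotypes in all 3 genes, as they did in 63.5% of all genes. Map3k8 had 9.09 and 9.15 against 8.76 and 8.73 and was not called (0.37, adjusted p 0.234), and Egr1 (0.39) was not called either. Egr2 of the ERK pathway list went the other way and was called higher (1.07 ± 0.27). The Egr2 difference lay between 0.85 and 1.30 with an array left out, and its call was not kept in all of these fits. In all, 3 of 25 ERK pathway genes were called higher and 4 lower, shares near the 7.58% and 10.4% of all genes, with Ier3 (-1.08) and Jun (-0.56) among the decreases, and the higher count was 1, 3, 2 and 4 in the leave-out fits. Of 15 phosphatases and mRNA decay factors, 3 were lower (Zfp36l1, Dusp6 and Dusp1, background 10.4%), 1 was higher (Dusp2, 0.88, background 7.58%), and Zfp36, which codes for tristetraprolin, was not called (0.02). These counts were the same in all 4 leave-out fits.

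**Figure D5:**
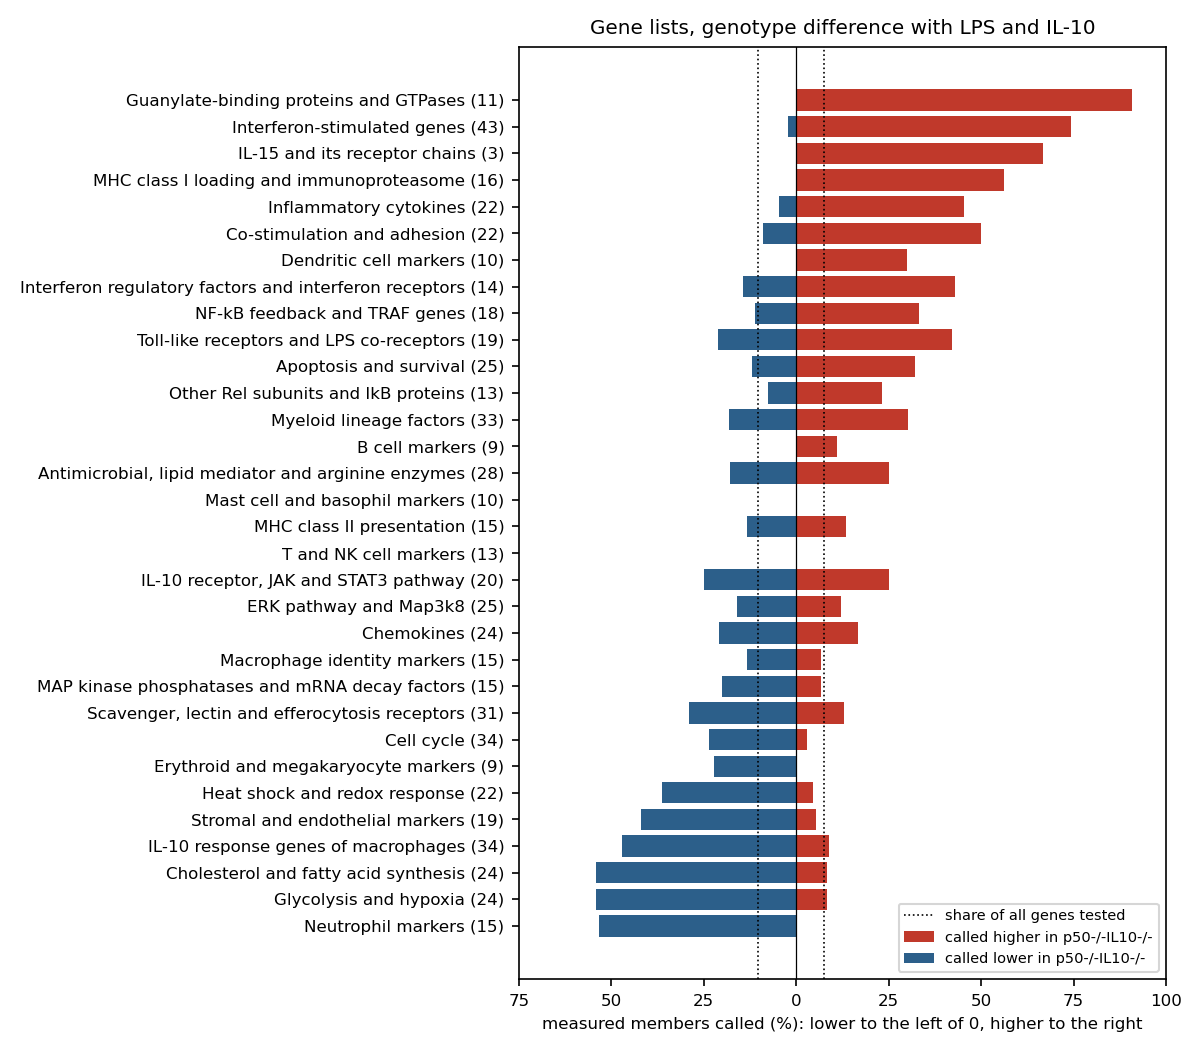
Percent of the measured members of each gene list called higher or lower in p50-/-IL10-/- against IL10-/- cells with LPS and IL-10, with dotted lines at the shares of all genes (7.58% higher and 10.4% lower). Interferon-stimulated genes and GTPases stand out upward with 32 of 43 and 10 of 11 members, and cholesterol synthesis, glycolysis and neutrophil markers stand out downward with 13 of 24, 13 of 24 and 8 of 15 members.

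Metabolic genes that differed were nearly all lower without p50 and p105. Of 24 glycolysis and hypoxia genes, 13 were called lower (background 10.4%) and 2 higher, with a median of -0.53, and the lower count was 12, 11, 13 and 11 with each array left out. Pfkfb3, which raises the activator of phosphofructokinase, had 9.33 and 9.34 log2 against 10.79 and 10.71 (-1.42 ± 0.15), while its second probe set read -0.25. The enolase Eno2 (-1.40), the mitophagy receptor Bnip3 (-1.44), the lactate exporter Slc16a3 (-0.92) and the glucose transporter Slc2a1 (-0.77) were lower, and Ldha (-0.20) and Aldoa (-0.10) were not called. Eno2 was dim in p50-/-IL10-/- cells, with a mean of 5.50 log2. Hexokinase Hk1 (0.44) was among the 2 higher members. Of 24 cholesterol and fatty acid synthesis genes, 13 were called lower and 2 higher, with a median of -0.55. This lower count was 3, 10, 10 and 4 with each array left out in turn, and the higher count was 0 in each of these fits. Sqle, squalene epoxidase, had 8.97 and 9.37 against 10.29 and 10.32 (-1.13 ± 0.15), and the desaturase Scd2 had 5.58 and 6.40 against 7.85 and 8.26 (-2.06 ± 0.30). Both calls were kept in the 4 leave-out fits, whereas those of Cyp51 (-1.16) and Fdps (-1.12), other sterol pathway enzymes, were not, and a second Fdps probe set read 0.15.

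Receptors and differentiation factors of macrophages changed in both directions. Among 31 scavenger, lectin and efferocytosis receptor genes, 9 were called lower and 4 higher (10.4% and 7.58% of all genes), with 4, 4, 6 and 6 lower and 1, 2, 4 and 2 higher in the leave-out fits. Clec4n, the mouse Dectin-2 receptor for fungal mannans, read 9.52 and 9.79 log2 against 11.97 and 11.90 (-2.28 ± 0.11, adjusted p 1.51e-06). Marco (-1.11), Msr1 (-0.74) and Cd163 (-0.69), all scavenger receptors, were lower, and Mertk, which binds apoptotic cells, was higher with 8.75 and 9.28 against 7.49 and 7.30 (1.62 ± 0.19). Of 33 myeloid lineage factors, 10 were called higher and 6 lower, with 4, 3, 4 and 6 higher and 5, 3, 5 and 5 lower in the leave-out fits. Klf4 was higher by 1.00, a call that ended without p50-/-IL10-/- array 1 (adjusted p 0.0577), and Cebpd lower by -1.23, with a second Cebpd probe set at -0.18, and Spi1, Irf8 and Csf1r were not called. Serpinb2, a plasminogen activator inhibitor of activated macrophages, had a dim 4.60 and 4.74 against 6.80 and 6.70 (-2.08 ± 0.08, adjusted p 4.35e-07).

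Growth and stress genes were examined as 3 lists. Of 34 cell cycle genes, 8 were called lower and 1 higher (10.4% and 7.58% of all genes), with a median of -0.25 and with 3, 4, 7 and 4 lower in the leave-out fits. The higher member was Cdkn1a, the p21 inhibitor of cyclin-dependent kinases, with 13.18 and 13.18 log2 against 11.71 and 11.65 (1.50 ± 0.10, adjusted p 1.68e-05). Survivin, Birc5 (-1.39), and topoisomerase Top2a (-0.98) were lower, but their calls ended in leave-out fits, and the proliferation marker Mki67 (0.05) was not called. The Birc5 mean in p50-/-IL10-/- cells was a dim 5.87 log2. Of 25 apoptosis and survival genes, 8 were called higher, among them Mdm2 (1.03) and Gadd45a (1.22), and 3 lower, a count that was 1, 1, 2 and 1 in the leave-out fits. Of 22 heat shock and redox genes, 8 were called lower, with 3, 3, 4 and 1 in the leave-out fits, and 1 higher.

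Markers of other cell types were checked in the same comparison. The background for the counts that follow was 7.58% of all genes called higher and 10.4% called lower. Of 15 neutrophil markers, 8 were called lower (background 10.4%) and 0 higher in limma, also at an unadjusted p under 0.05, with a list mean of 7.87 and 7.82 log2 on the p50-/-IL10-/- arrays against 8.44 and 8.39 on the IL10-/- arrays. The lower members were Lcn2, Chil3 (-1.43), S100a8 (-1.10), S100a9 (-1.08), Ngp, Ltf, Camp and Mmp9, whereas Mpo (-0.13), Elane (-0.33), Prtn3, Ctsg, Csf3r and Cxcr2 were not called. With LPS alone 10 of these markers were lower and without stimulus 8, so the shift was present under every stimulus. Of 19 stromal and endothelial markers, 8 were called lower and 1 higher, with list means of 6.51 and 6.53 against 6.85 and 7.08, and the lower count was 3, 2, 9 and 2 in the leave-out fits. The stromal genes Bgn (-1.32) and Dcn (-1.17) were lower, while Col1a1 (0.00), Pdgfrb, Lum, Pecam1 and Cdh5 were not called. In RNA from whole cultures, fewer cells of a kind and less RNA per cell cannot be told apart, and the part of other cells in the differences of Lcn2, Thbs1 or the other members was not tested. Of 10 dendritic cell markers, 3 were called higher, of which Itgax was kept without any array while Flt3 (0.27) and Zbtb46 (0.23) were not. Of 9 B cell markers, 1 was higher (Vpreb3, 0.37, not kept in the leave-out fits), a share near that of all genes. Of 9 erythroid and megakaryocyte markers 2 were lower (Ppbp, -1.25, and Pf4, -0.72, the last not kept). The Ppbp mean was a dim 5.15 log2 in p50-/-IL10-/- cells. Of 13 T and NK cell markers limma called 0, with 3 higher and 1 lower at an unadjusted p under 0.05, and of 10 mast cell and basophil markers it called 0, with 1 higher at that p. For the macrophage markers, 1 of 15 was higher and 2 were lower, shares near those of all genes. Adgre1, the macrophage surface antigen of the adhesion receptor family (-0.57), was a lower member. There was no call for Csf1r (-0.04), Cd68 (0.08) or Lyz2 (-0.01).

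Many genes that LPS itself raised were higher without p50 and p105 in the presence of IL-10. LPS raised 328 called genes by at least 1 log2 in IL10-/- cells (2.65% of all genes) and lowered 242 (1.95%). The LPS differences use no array with IL-10, but the spread behind their calls was estimated from all 12 arrays. These calls and those of the genotype difference are therefore not independent. Of the 328 raised genes, 198 were called higher in p50-/-IL10-/- cells with LPS and IL-10, which is 60.4% against a background of 7.58%, and 20 were called lower. The median difference of the raised genes was 0.71. Of the 242 lowered genes, 5 were called higher and 99 lower (40.9% against 10.4%), with a median of -0.35. With each array left out in turn, the 198 became 157, 135, 178 and 143, which is under 1 in 2 of the raised genes in 3 of the 4 fits, and the 99 became 66, 53, 73 and 51. The 20 became 11, 12, 16 and 10 and the 5 became 2, 3, 2 and 5. The decreases among LPS-raised genes and the increases among LPS-lowered genes were thus the minority in both sets. Over all genes, too, fewer were called in each direction in every one of these fits, so the smaller counts are not particular to these sets.

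Set beside the other stimuli, the genotype difference with LPS and IL-10 involved the most genes. With LPS alone 1535 genes were called (12.4%), 702 higher (5.66%) and 833 lower (6.72%), and without stimulus 318 were called (2.57%), 156 higher (1.26%) and 162 lower (1.31%). The means compared share no arrays, but the calls share an estimate of each gene's spread from all 12 arrays. The overlaps that follow are therefore not between independent sets of calls. Of the genes called higher with LPS and IL-10, 442 were also higher with LPS alone, which is 47.0% of the genes with LPS and IL-10 and 63.0% of those with LPS alone. For genes called lower, 539 were shared, 41.8% and 64.7% of each list. With no stimulus the shared genes were 104 higher (11.1% and 66.7%) and 101 lower (7.82% and 62.3%). Under all 3 stimuli 92 genes were higher and 91 lower, among them Gbp2b, Gdpd3, Itgax, Fabp3, Tlr1, Clec4n, Thbs1, Ccn2 and Ankrd33b. A call under one stimulus and not under another does not show that the differences differ, so these were also tested directly.

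The direct test against LPS alone called 17 genes (0.137%), 12 with a more positive difference in the presence of IL-10 (0.0968%) and 5 with a more negative one (0.0403%). Il15 differed between genotypes by 2.86 with LPS and IL-10 and by 0.94 with LPS alone, where it read 12.00 and 11.97 log2 in p50-/-IL10-/- cells against 11.19 and 10.90 in IL10-/- cells. The difference of these differences was 1.92 ± 0.17 (adjusted p 0.00295). Irf1 differed by 1.49 with LPS and IL-10 and by 0.43 with LPS alone (12.96 and 12.99 against 12.55 and 12.53), a change of 1.06 ± 0.10 (adjusted p 0.00295). Serpinb2 (-1.20 ± 0.11) and the orphan receptor Gpr146 (-1.01 ± 0.10) changed in the negative direction, and these 4 genes were called in all 8 fits with an array left out. For Gpr146 the arrays read 7.39 and 7.35 against 8.34 and 8.27 with LPS and IL-10, and 7.28 and 7.36 against 7.23 and 7.26 with LPS alone. Ptgs2 changed sides, with a genotype difference of 1.22 in the presence of IL-10 and of -0.86 without it, a change of 2.08 ± 0.26 (adjusted p 0.0115), which was lost in 4 of 8 leave-out fits. Cdkn1a (1.24 ± 0.14) and the leucine zipper gene Tsc22d1 (1.61 ± 0.19) were each lost in 2 of 8, and other Tsc22d1 probe sets gave genotype differences of -0.31 to 2.42 with LPS and IL-10. For Cxcl10, Mx1 and Ifit2 the genotype differences with LPS alone were 0.57, 0.98 and 0.97, but the change in difference was not called. The count of 17 was 4, 5, 14 and 11 with each array of LPS and IL-10 left out in turn, and 11, 14, 10 and 43 with each array of LPS alone left out in the same order of genotypes.

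The direct test against unstimulated cells called 272 genes (2.19%), 146 with a more positive difference (1.18%) and 126 with a more negative one (1.02%). Il12b read 4.81 and 5.59 log2 against 4.86 and 4.66 without stimulus, and its genotype difference was larger by 2.91 ± 0.30 with LPS and IL-10 (adjusted p 0.00205). Il15 read at most 8.30 on any of the 4 arrays without stimulus, and its difference was larger by 2.85 ± 0.17 (adjusted p 9.58e-05). The genotypes overlapped for both genes in the absence of a stimulus. Gfi1 (2.84 ± 0.27), Mir155hg (2.48 ± 0.27), Ptgs2 (2.26 ± 0.26) and Irf1 (1.37 ± 0.10) changed likewise. Dusp1 had 9.92 and 10.16 against 10.12 and 10.09 without stimulus and changed by -1.49 ± 0.17, and Zfp36l1 (-1.82 ± 0.27) and Pfkfb3 (-1.71 ± 0.21) also changed in the negative direction. Socs3 turned round, with -0.56 without stimulus and 0.42 with LPS and IL-10, a change of 0.98 ± 0.12. These 10 genes were called in all 8 leave-out fits, whereas Il6 (2.32 ± 0.46) and Il10 (1.15 ± 0.22) were not. The count of 272 was 126, 79, 172 and 119 with each array of LPS and IL-10 left out, and 94, 110, 131 and 123 with each unstimulated array left out.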

How the data were processed

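RNA of 12 macrophage samples was measured on 1 Affymetrix array each. The authors deposited log2 expression values of 22690 probe sets in a single table. The submitters' processing notes name RMA and limma without role or version. RMA values compress differences of dim genes, and common scaling hides a change in total RNA. The genome build of the probe annotation was not given in the sources used here.

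Of the probe sets, 64 were controls, 20380 carried 1 gene symbol, 691 several and 1555 none. Each of 12393 genes was represented by its brightest probe set on average over the 12 arrays. Genes with several probe sets numbered 4956, and disagreement is given beside the gene. limma 3.58.1 in R 4.3.3 fitted a mean for each of 6 groups to all 12 arrays (6 residual and 4.47 prior degrees of freedom), two-sided, with Benjamini-Hochberg adjustment over all genes and a threshold of 0.05. Folds come from the fitted log2 difference. The procedure was tested on simulated data. The number of arrays limits the precision.

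The 32 gene lists (734 entries, 635 measured), the motifs and the comparison were chosen with earlier results of these data known. Genes were named by rule: the 15 largest called differences in each direction with separate arrays and a higher group mean above 5.94 log2, up to 4 called members and 1 uncalled member per list, the 5 largest changes of the genotype difference in each direction, the 5 largest in each direction under all 3 stimuli, and 22 chosen cytokine and pathway genes. Further list members are given with their values and were picked after these were seen. Same-numbered arrays did not deviate together in every pair of groups (correlations of deviations -0.49 to 0.60), so replicate numbers were not taken as pairs. Alternatives were a replicate block, other group sets, dim genes removed, centring, averaged probe sets, a variance trend and leaving out each array.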

Additional observations from a re-analysis of the deposited data

Results flagged for a closer look

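Each of these genes had a genotype difference (p50-/-IL10-/- minus IL10-/-) that changed between stimuli in limma's direct test, with an adjusted p under 0.05. The values are the difference with LPS and IL-10 minus that under the other stimulus, in log2.

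Against LPS alone, the change was positive for Egr1 (1.82), Ptgs2 (2.08), Il15 (1.92), Tsc22d1 (1.61), Ankrd33b (1.34), Cdkn1a (1.24), Irf1 (1.06) and Gch1 (0.885). It was negative for Steap4 (-1.42), Serpinb2 (-1.20), Gpr146 (-1.01), Olfm1 (-1.003) and Nfatc1 (-0.817). For Ankrd33b the genotype difference was negative under both stimuli and smaller in size with IL-10 present. Calls were kept in all 8 fits with an array left out for 4 of these 13 genes, namely Gpr146, Il15, Irf1 and Serpinb2.

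Against no stimulus, the change was positive for Il12b (2.91), Il15 (2.85), Gfi1 (2.84), Mir155hg (2.48), Batf2 (2.37), Il6 (2.32), Ptgs2 (2.26), Irf1 (1.37), Nos2 (1.18), Il10 (1.15), Socs3 (0.978), Relb (0.856) and Nfkb2 (0.630). It was negative for Scd2 (-2.20), Zfp36l1 (-1.82), Pfkfb3 (-1.71), Ptger2 (-1.66), Eno2 (-1.64) and Dusp1 (-1.49). Calls were kept in all 8 such fits for 10 of these 19 genes.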

How the results depend on the processing

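With each array left out, the count of 2231 genes lay between 987 and 1504, the 17 genes whose difference changed against LPS alone between 4 and 43, and the 272 against no stimulus between 79 and 172. A fit without 1 array leaves a lone array in its group, which is assumed to vary like the other groups, and fewer arrays enter. With the replicate number as a fixed block (replicate block) the counts were 2304, 22 and 319, and with a random replicate block within genotypes 2232, 22 and 341. The p50-/-IL10-/- arrays with LPS and IL-10 deviated against same-numbered arrays of the other groups (-0.17 to -0.49), and with their numbers crossed, a setting chosen after seeing the data, the replicate block gave 2785, 79 and 643. A fit on only the groups compared gave 1948, 10 and 437. The mean of each gene's probe sets gave 2184, 26 and 278. Without dim genes there were 2207, 13 and 295, with centred arrays 2257 (861 higher and 1396 lower), 15 and 273, and with a variance trend 2169, 16 and 260. The cause of these moves was not tested. Of 133 named genes called, 94 kept their call in all 12 alternatives, and none of 1593 values by gene and setting reversed.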

Other observations

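Genes outside the lists were among the larger differences with LPS and IL-10. Chil1, a chitinase-like secreted protein, read 11.09 and 11.44 log2 in p50-/-IL10-/- cells against 8.78 and 8.66 in IL10-/- cells, a difference of 2.54 ± 0.22, and the fatty acid binding protein gene Fabp3 was higher by 2.46 ± 0.14. Both were also higher with LPS alone (1.61 and 1.74) and without stimulus (1.02 and 1.55). Batf2, an AP-1 family factor induced by interferon, was higher by 2.46 ± 0.34. The lysosomal channel gene Mcoln3 (-2.03) and the centromere protein gene Incenp (-1.91) were lower, and other Incenp probe sets read -1.15 and -0.18. The Mcoln3 mean in p50-/-IL10-/- cells was a dim 5.22 log2.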
